A study of Mus musculus with 5 samples.

Results

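The genes described here are those of major histocompatibility complex (MHC) class II presentation and their regulator. They are Ciita, Cd74, H2-Aa, H2-Ab1 and H2-Eb1, chosen by gene symbol, and all 5 were found among the 35976 genes of the count table. The libraries come from amygdala astrocytes of mice with the genotype Ccr2::CreERT2/+;DTR/+, which names a tamoxifen-activated Cre recombinase under Ccr2 control and an allele of the diphtheria toxin receptor. Mice of both groups carried these alleles, received tamoxifen, and were restrained in tubes over 18 days, then fear-conditioned and put through extinction. One group received saline and the other DTx (diphtheria toxin), which in such mice is meant to remove CCR2-expressing monocytes. After papain digestion, cells were collected on beads against the astrocyte antigen ACSA-2, and 2 saline and 3 DTx libraries were analysed. The labels give no strain, age or sex, and do not say whether a library holds 1 animal or a pool. The question was whether monocyte depletion during stress changed amygdala astrocytes.

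MHC class II molecules present peptides from the endosomal pathway to CD4+ T cells. Each is an alpha and a beta chain, H2-Aa with H2-Ab1 in the I-A molecule, and H2-Eb1 is the beta chain of I-E. Cd74, the invariant chain, chaperones the pair and blocks the peptide groove until the endosome, and Ciita is the transcriptional coactivator that class II genes depend on. Dendritic cells, B cells and macrophages carry most class II, border macrophages of the meninges and vessels and activated microglia carry it in the brain, and interferon gamma can induce it in other cells.

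Ciita lies on chromosome 16 (10480014 to 10531064) of GRCm38. H2-Ab1 (34263227 to 34269418), H2-Aa (34282744 to 34287823) and H2-Eb1 (34305867 to 34316674) lie beside each other on chromosome 17. The promoter table of RefSeq (GRCm38.p6) held windows for H2-Aa and H2-Eb1 of the 5 genes. Class II promoters are known for an X box, bound by the RFX complex, followed at a fixed distance by a Y box, bound by NF-Y, on which Ciita assembles. Of the class II genes with a window in the table, the stretches below are from those that held GCAAC followed by ATTGG, with GCAAC of the X box and ATTGG of the Y box in capitals and all stretches reading 5′ to 3′ along the gene.

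H2-Aa (chr17:34287837-34287934, minus strand): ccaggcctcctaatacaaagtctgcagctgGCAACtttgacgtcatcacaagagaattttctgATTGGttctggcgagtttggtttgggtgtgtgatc
H2-Eb1 (chr17:34305746-34305842, plus strand): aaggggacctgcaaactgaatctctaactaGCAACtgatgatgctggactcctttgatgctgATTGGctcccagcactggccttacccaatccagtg
H2-Eb2 (chr17:34325513-34325609, plus strand): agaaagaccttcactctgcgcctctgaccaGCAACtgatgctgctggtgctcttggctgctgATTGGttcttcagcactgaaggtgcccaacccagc
H2-Ob (chr17:34238788-34238882, plus strand): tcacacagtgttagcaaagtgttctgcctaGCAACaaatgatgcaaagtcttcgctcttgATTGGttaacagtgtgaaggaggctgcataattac
H2-Oa (chr17:34092273-34092370, plus strand): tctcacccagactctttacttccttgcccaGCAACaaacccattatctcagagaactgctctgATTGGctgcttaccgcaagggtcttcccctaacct

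Between GCAAC and ATTGG lay 28 bases in H2-Aa and 27 in H2-Eb1. H2-Oa had 28 bases there, H2-Eb2 had 27 and H2-Ob had 25. In H2-Aa the ATTGG began 48 bases before the gene start, and in H2-Eb1 it began 59 bases before. GCAAC was chosen after these sequences were read, so its presence here is a description. On either strand, GCAAC followed after 15 to 40 bases by ATTGG was found in 407 of 32851 promoter windows, or 1.24%. The X box letters searched first, AGNNACA, gave such a pair with ATTGG in 1.56% of windows. On the strand of the gene it was found in H2-Oa and H2-Ob and in neither H2-Aa nor H2-Eb1. The windows of H2-DMa, H2-DMb1 and H2-DMb2 held neither pair on that strand. ATTGG alone was found in 37.4% of windows. The windows run from 250 bases before to 50 bases after a gene start.

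Total counts were 15961220 to 23720299 per library. Ccr2 had 0 counts in both saline libraries and 54, 4 and 4 counts in the libraries labelled DTx 5A, 6A and 7A, the opposite of the depletion that the label names. Directions below are therefore those of the libraries as labelled. Xist was at 172.6 and 128.9 CPM (counts relative to the TMM-scaled library size) in saline and at most 0.159 CPM in the DTx-labelled libraries. The sum of 4 Y-linked genes was at most 0.185 CPM under saline, against 185.4 to 201.2 CPM in the DTx-labelled libraries, so sex and treatment cannot be told apart. Astrocyte markers were present, with all 10 of 10 counted in every library and a sum of 24030 to 28040 CPM, and Atp1b2, which encodes the ACSA-2 antigen, was at 4328 to 5679 CPM. Oligodendrocyte markers were also present, at a sum of 36190 to 79030 CPM.

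The class II genes were low in both saline libraries and in DTx library 6A, and high in DTx libraries 5A and 7A. Cd74, the invariant chain, was at 3.00 and 5.78 CPM in saline replicates 1 and 2, and at 115.6, 4.60 and 49.56 CPM for 5A, 6A and 7A. Saline replicate 2 lay above library 6A, so the groups overlapped. These levels rest on 65 and 129 counts in saline and on 2188, 74 and 870 counts in the same DTx order. Within the DTx-labelled group the highest Cd74 level was 25.1 times the lowest, against 1.93 times within saline.

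H2-Ab1, the I-A beta chain, was at 1.108 and 2.02 CPM under saline, against 37.21, 1.43 and 17.49 CPM for 5A, 6A and 7A. Its groups overlapped in the same way, with library 6A between the saline libraries. H2-Aa, the I-A alpha chain, was at 0.369 and 0.717 CPM under saline, against 21.99, 1.18 and 7.80 CPM for 5A, 6A and 7A. It was the 1 member whose groups did not overlap, and library 6A, with 19 counts, stood next to saline replicate 2 with 16. H2-Eb1, the I-E beta chain, was at 0.416 and 0.941 CPM under saline, against 15.43, 0.746 and 6.09 CPM in the same DTx libraries, again with library 6A between the saline libraries. Groups that did not overlap with DTx higher made up 12.1% of the 15532 genes tested, so 1 of 5 members is near that background. No member was lower without overlap, against 8.99% of genes.

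**Figure D1:**
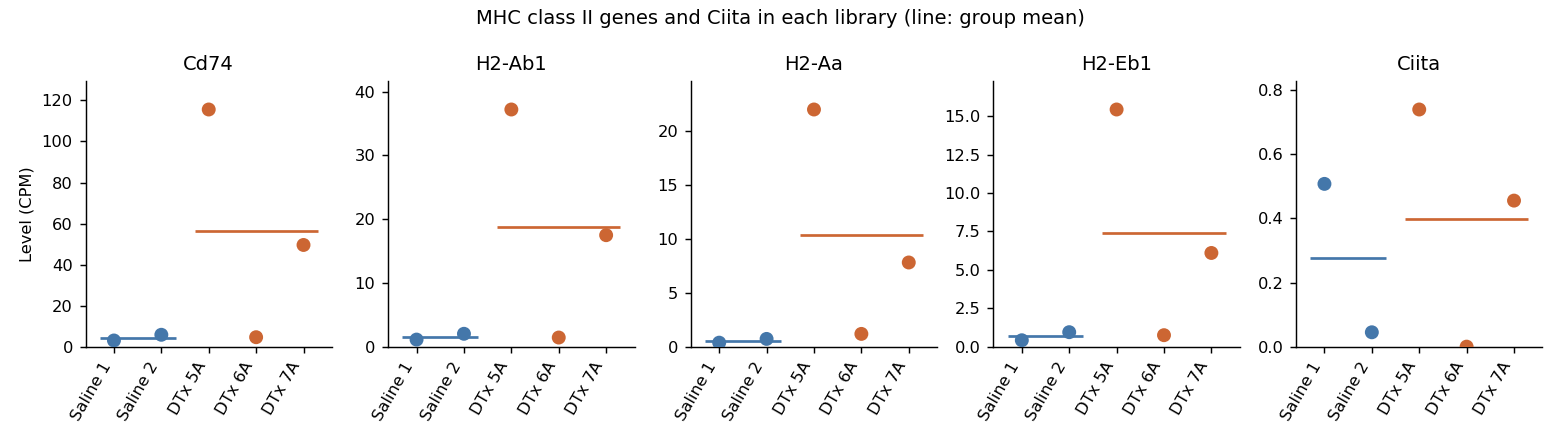
Level of each gene in CPM (y axes, linear, each from 0) in the 2 saline (blue) and 3 DTx-labelled (orange) libraries, with lines at group means. Cd74 reached 115.6 CPM in library 5A and 49.56 CPM in 7A but 4.60 CPM in 6A, and Ciita stayed under 1 CPM in every library.

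The mean differences were large but did not pass the test. All 5 members passed the low-count filter and had a log2 fold change (DTx-labelled over saline) above 0, as did 50.3% of all genes tested. The change was 3.69 ± 1.36 (SE) for Cd74, or 12.9-fold, 4.23 ± 1.36 for H2-Aa, or 18.8-fold, 3.58 ± 1.36 for H2-Ab1 and 3.44 ± 1.31 for H2-Eb1. For each of these 4 the adjusted p of edgeR's quasi-likelihood test over all genes was 0.789. The median over the 5 members was 3.58, against 0.0017 over all genes. A log2 fold change above 1 was found in 4 of 5 members and 4.44% of genes, and one above 3 in the same 4 members and 0.528% of genes.

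No member was among the 5 genes called at an adjusted p under 0.05, which were 0.0322% of those tested. At an unadjusted p under 0.05 with DTx higher there were 4 of 5 members, with p from 0.0242 to 0.0434, against 4.29% of all genes. DESeq2, which called 111 of the 15532 genes, called H2-Aa (adjusted p = 0.00304). It gave adjusted p of 0.0592 for H2-Eb1, 0.318 for Cd74 and 0.366 for H2-Ab1. The log2 fold changes of these 4 genes were 2.32 to 3.03 without library 5A and 3.97 to 4.76 without library 6A, with edgeR adjusted p of 0.991 and of 0.626 to 0.725. They were 3.57 to 4.40 without library 7A, 2.97 to 3.84 without saline replicate 1 and 4.07 to 4.78 without saline replicate 2, with edgeR adjusted p of at least 0.445.

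Ciita, the coactivator, had few counts and another order of libraries. There were 11 counts in saline replicate 1 and 1 count in saline replicate 2, and 14, 0 and 8 counts for 5A, 6A and 7A. These are 0.508 and 0.0448 CPM under saline, against 0.74, 0 and 0.456 CPM in the DTx-labelled libraries. The groups overlapped at both ends, and saline replicate 1 lay above library 7A. By the exact 95% Poisson interval, the 0 counts in library 6A allow up to 0.229 CPM, and the interval in saline replicate 1 was 0.254 to 0.909 CPM, counting error only.

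The summed Ciita counts of the DTx-labelled libraries over saline gave a ratio of 1.53 (95% interval 0.727 to 3.4, counting error only). The log2 fold change was 0.55 ± 1.36 (SE, edgeR adjusted p = 0.943). It was 3.00 without saline replicate 1, 1.10 without library 6A and 0.46 without library 7A. Without saline replicate 2 it turned to -0.32, and without library 5A the gene fell below the filter.

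Cd74, on chromosome 18 (60803849 to 60812652, GRCm38), had the highest level. Per kilobase of exon, the order of the genes was the same in 5 of 5 libraries, Cd74 above H2-Ab1, H2-Aa, H2-Eb1 and Ciita. In the low libraries parts of the order rest on few counts, and counting error was not weighed. H2-Aa and H2-Eb1 had 8 and 9 counts in saline replicate 1, and H2-Ab1 and H2-Aa had 23 and 19 in library 6A. In saline the levels per kilobase were 3.10 ± 1.39 CPM (SD, n = 2) for Cd74, 1.29 ± 0.531 for H2-Ab1, 0.482 ± 0.218 for H2-Aa, 0.378 ± 0.207 for H2-Eb1 and 0.0335 ± 0.0396 for Ciita. H2-Aa and H2-Eb1 there differed by less than their spread. In the DTx-labelled libraries they were 39.97 ± 39.5 CPM per kilobase (SD, n = 3) for Cd74, 15.44 ± 14.8 for H2-Ab1, 9.15 ± 9.42 for H2-Aa, 4.13 ± 4.14 for H2-Eb1 and 0.0482 ± 0.0452 for Ciita. There every pair of neighbours in the order differed by less than the SD of the higher gene, while the order held within each library.

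The beta chains H2-Ab1 and H2-Eb1 kept nearly the same proportion to Cd74 while their levels varied. Per 100 CPM of Cd74, H2-Ab1 was at 36.92 and 34.88 CPM under saline, against 32.18, 31.08 and 35.29 CPM for 5A, 6A and 7A, a range of 1.19 times. H2-Eb1 was at 13.85 and 16.28 CPM under saline, against 13.35, 16.22 and 12.3 CPM in the same DTx libraries, a range of 1.32 times. Over these libraries Cd74 itself ranged 38.5 times.

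H2-Aa moved more, at 12.31 and 12.4 CPM per 100 CPM of Cd74 in saline and 19.01, 25.68 and 15.75 CPM for 5A, 6A and 7A, so its groups did not overlap on this ratio. These ratios rest on few H2-Aa counts, 8 and 16 in saline replicates 1 and 2 and 19 in library 6A, the highest. The difference in this ratio was not tested. Ciita per 100 CPM of Cd74 was at 16.92 CPM in saline replicate 1 and 0.775 CPM in saline replicate 2. It was at 0.64, 0 and 0.92 CPM for 5A, 6A and 7A, so saline replicate 1 stood apart from the other 4 libraries.

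**Figure D2:**
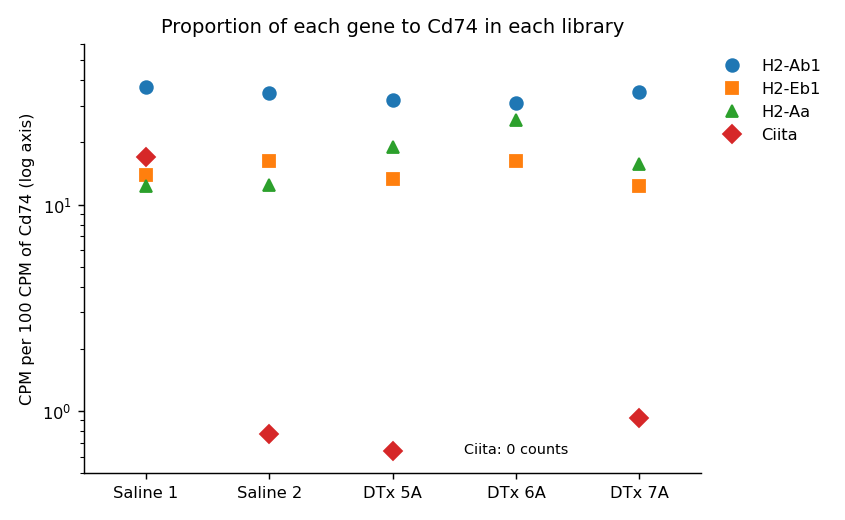
Level of each gene per 100 CPM of Cd74 (y axis, log scale) in each library (x axis). H2-Ab1 lay between 31.08 and 36.92 in every library and H2-Eb1 between 12.3 and 16.28, H2-Aa reached 25.68 in DTx library 6A, and Ciita was at 16.92 in saline replicate 1 and under 1 elsewhere, with 0 counts in 6A.

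Counts of the beta chains are uncertain to the extent that reads are shared between class II paralogs. Few reads were counted for the relatives, and such counts cannot show how many reads were shared. H2-Eb2, the paralog of H2-Eb1, had 0 counts under saline against 2 in DTx-labelled libraries. H2-Ea-ps, annotated as an I-E alpha chain pseudogene, had 0 counts in every library.

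The summed microglia markers did not follow the same order. The sum of 20 markers was 158.2 and 366.6 CPM under saline, against 576.5, 431.8 and 350.6 CPM for 5A, 6A and 7A, and all 20 had counts in every library. In the edgeR fit 19 of 20 were higher in the DTx-labelled libraries, against 50.3% of all genes, and the median log2 fold change was 0.79. The median was 0.20 without saline replicate 1, with 14 of 20 higher, and 1.87 without saline replicate 2. With all libraries 0 of the 20 passed over all genes (1 at an unadjusted p under 0.05, and 0 with DESeq2). C1qc, a complement C1q chain, was at 13.44 and 31.2 CPM under saline, against 76.01, 37.81 and 40.84 CPM for 5A, 6A and 7A (edgeR adjusted p = 0.789). Unlike the sum, C1qc had the library order of H2-Aa, although libraries 6A and 7A were nearly level in C1qc. The log2 of the summed level differed by 0.88, with a two-sided exact permutation p of 0.2 over 10 regroupings, where 0.1 is the smallest possible. In bulk libraries, fewer cells of a type and less RNA per cell cannot be told apart.

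Per 100 CPM of microglia markers, the 4 class II genes summed to 3.09 and 2.58 CPM under saline, against 33.01, 1.84 and 23.09 CPM for 5A, 6A and 7A. Library 6A was therefore the lowest of all 5 libraries on this scale, although its microglia marker sum was above that of library 7A. For Cd74 alone the values were 1.90 and 1.58 CPM under saline, against 20.06, 1.07 and 14.13 CPM in the same DTx libraries. The mean log2 ratio of Cd74 to the markers was 1.96 higher in the DTx-labelled libraries, with a two-sided exact permutation p of 0.4. It was 1.17 without library 5A, 3.28 without 6A and 1.42 without 7A. With the mean microglia marker level added to the fit, the log2 fold changes of the 4 class II genes were 2.35 to 3.09 and that of Ciita was 2.07, with edgeR adjusted p of 0.9996 and 2 residual degrees of freedom.

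**Figure D3:**
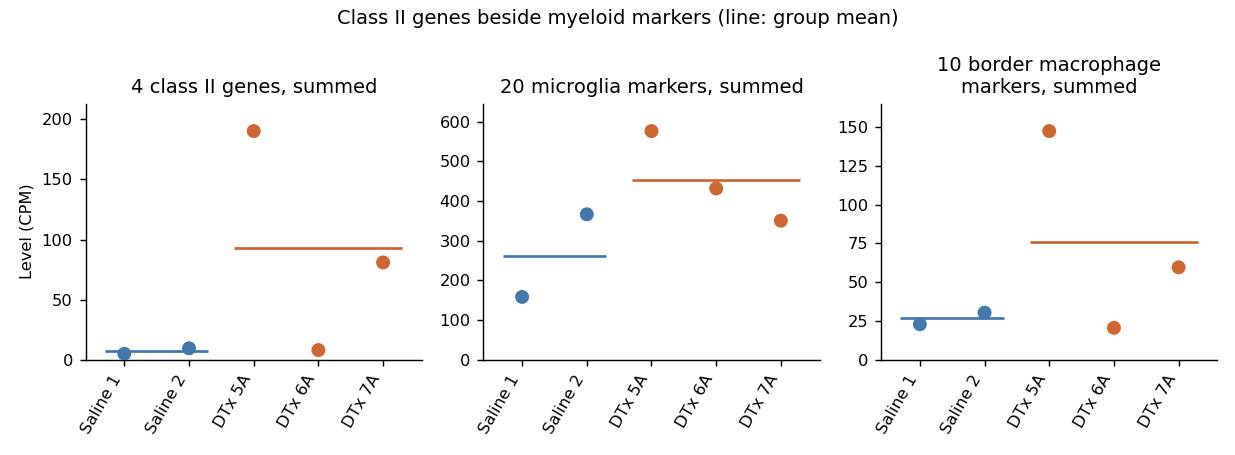
Summed level of Cd74, H2-Aa, H2-Ab1 and H2-Eb1, summed microglia markers and summed border macrophage markers (y axes, CPM, linear from 0) in each library, with lines at group means. Library 6A was low in class II (7.96 CPM) and border macrophage markers (20.52 CPM) and high in microglia markers (431.8 CPM).

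The summed border macrophage markers were highest in libraries 5A and 7A, as class II was, but single markers differed in 7A. The sum of 10 markers was 22.85 and 30.3 CPM under saline, against 147.4, 20.52 and 59.53 CPM for 5A, 6A and 7A, with none of the 10 at 0 in any library. Mrc1, the mannose receptor of these cells, was at 4.34 and 6.5 CPM under saline, against 37.95, 5.1 and 14.7 CPM in the DTx libraries in the same order. Ms4a7 was at 0.877 and 0.672 CPM under saline, against 6.03, 0.808 and 2.56 CPM for 5A, 6A and 7A. In the edgeR fit 9 of 10 markers were higher, against 50.3% of all genes. The median log2 fold change was 1.63, or 0.40 without library 5A. Of the 10, 0 passed over all genes (1 at an unadjusted p under 0.05, 0 with DESeq2).

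Per 100 CPM of these border macrophage markers, Cd74 was at 13.13 and 19.08 CPM under saline, against 78.48, 22.42 and 83.25 CPM for 5A, 6A and 7A. The groups did not overlap on this ratio, and library 6A was next to saline replicate 2. The mean log2 ratio was 1.74 higher in the DTx-labelled libraries (two-sided exact permutation p = 0.2). The part of border macrophages in the class II levels was not tested beyond these ratios.

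Most markers of monocytes, dendritic cells and lymphocytes had few counts, and they did not share 1 direction. In the monocyte and neutrophil list, Ms4a4c had 1 and 2 counts under saline and 22, 2 and 6 for 5A, 6A and 7A, and Ccr2 (0 and 0 against 54, 4 and 4 counts) was also higher without overlap in CPM. Plac8 had 2 counts under saline against 6 in DTx-labelled libraries. Ly6c2 had 2 counts under saline against 0, and S100a8 and S100a9 had 0 counts in all 3 DTx-labelled libraries. Lyz2, a lysozyme of macrophages and monocytes, carried most of that list, at 6.42 and 9.82 CPM under saline, against 91.28, 9.76 and 29.17 CPM for 5A, 6A and 7A. The list summed to 6.56 and 10.27 CPM under saline, against 95.41, 10.45 and 29.79 CPM in the same DTx libraries. Of the dendritic cell list, Xcr1 and Ccr7 were at 0 in every library, and the sum was 4.97 to 10.68 CPM. Clec9a had 1 count under saline against 2 in DTx-labelled libraries, Cd209a 1 against 9, Itgax 1 against 11 and Batf3 6 against 23.

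Of the 3 dendritic cell markers tested, 2 were higher and 1 lower in the DTx group, and 0 passed over all genes with edgeR (1 at an unadjusted p under 0.05). Clec10a, a lectin of dendritic cells and macrophages, was at 0.369 and 0.538 CPM under saline, against 2.43, 0.622 and 0.855 CPM for 5A, 6A and 7A, without overlap. Zbtb46, a transcription factor of dendritic cells, was at 4.16 and 2.69 CPM under saline, against 4.76, 3.55 and 5.41 CPM, with overlap. Flt3, the receptor that dendritic cells depend on, was at 2.63 and 2.60 CPM under saline, against 1.43, 0.497 and 1.31 CPM for 5A, 6A and 7A. It was lower without overlap, as 8.99% of all genes were (log2 fold change -1.27, edgeR adjusted p = 0.789). Flt3 was also the marker with the unadjusted p under 0.05. Of the B cell list, Ms4a1 was at 0 in every library and the sum was at most 1.20 CPM. Ighm and Igkc of that list were not in the count table, so the sum leaves them out. Cd22 had 3 counts under saline against 25 in DTx-labelled libraries, without overlap in CPM. Cd79a had 0 against 6, Pax5 6 against 12 and Cd79b 6 against 6. Of the T and NK cell list, Cd3d, Cd8a, Gzma and Ncr1 were at 0 in every library. The list sum was at most 0.646 CPM under saline, against 0.7405 to 1.96 CPM in the DTx-labelled libraries, without overlap. Lck had 17 counts under saline against 44 in DTx-labelled libraries, Cd4 4 against 11, Cd3e 0 against 5 and Cd3g 0 against 4. Nkg7 had 1 against 3 and Klrb1c 1 against 1. Only Lck was tested, with overlap in CPM (log2 fold change 1.09, edgeR adjusted p = 0.816).

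The peptide-editing and accessory chains were less spread than the class II chains. H2-DMa, the alpha chain of the DM molecule that exchanges peptides on class II, was at 2.36 and 3.23 CPM under saline, against 6.18, 4.54 and 4.67 CPM for 5A, 6A and 7A. H2-DMb1, its beta chain, was at 0.739 and 0.448 CPM under saline, against 2.64, 1.31 and 1.31 CPM in the same DTx libraries. In both genes the groups did not overlap, as in 12.1% of all genes with DTx higher, and library 6A lay above both saline libraries. Their log2 fold changes were 0.88 ± 0.312 and 1.56 ± 0.540 (SE), each with an edgeR adjusted p of 0.789. H2-DMa overlaps Brd2 in the annotation, and whether counting used the strand is not given in the sources used here. H2-DMb2, H2-Oa, H2-Ob, H2-Eb2 and H2-Ea-ps fell below the filter, and H2-Ob, a chain of the DO molecule that restrains DM, had 9 counts under saline against 19 in DTx-labelled libraries.

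The class II region of chromosome 17 also holds genes of the class I pathway. From H2-Oa to H2-Eb2, over 249 kb, 14 genes were in the table and 10 were tested, of which 9 were higher in the DTx-labelled libraries. None passed over all genes with edgeR, and the 9 had an unadjusted p under 0.05. Over all genes tested, 50.3% were higher, and 4.29% were higher with an unadjusted p under 0.05. The region was chosen after its values were seen. Psmb8, an immunoproteasome subunit, was at 2.45 and 3.497 CPM under saline, against 15.33, 20.27 and 8.03 CPM for 5A, 6A and 7A. Tap1, a peptide transporter subunit, was at 3.417 and 2.78 CPM under saline, against 8.72, 8.96 and 4.67 CPM. Both were highest in library 6A, where the neighbouring class II genes were low. Brd2, a bromodomain gene of the region, was at 140.4 and 109.1 CPM under saline, against 98.95, 108.2 and 131.1 CPM.

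**Figure D4:**
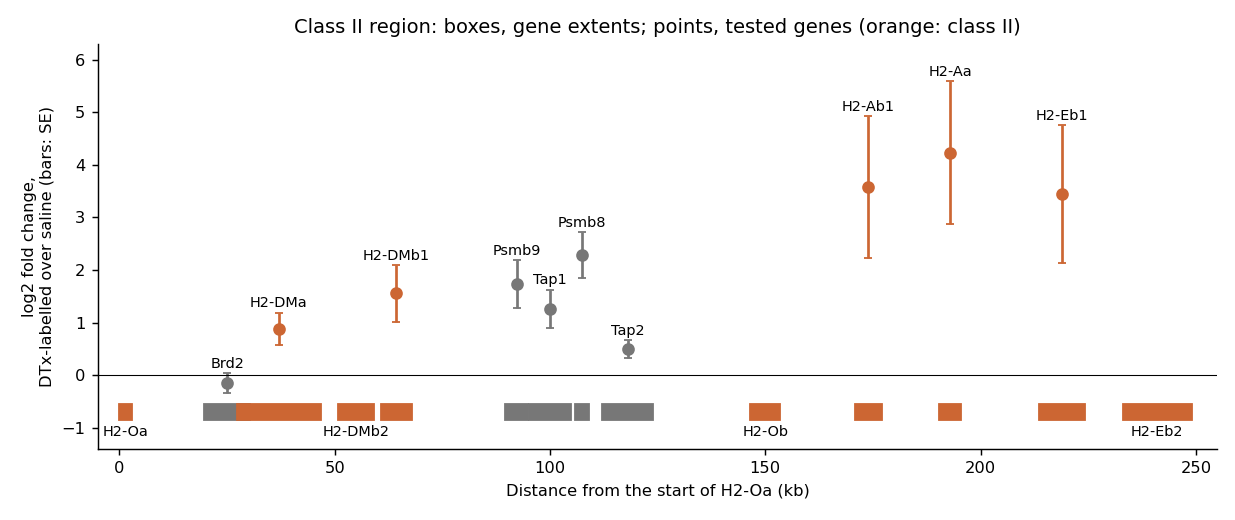
Log2 fold change (DTx-labelled over saline, y axis, bars SE) of the tested genes of the class II region against distance from the start of H2-Oa (x axis, kb). Orange marks class II genes and boxes mark gene extents. H2-Ab1, H2-Aa and H2-Eb1 stood at 3.44 to 4.23 with wide bars, Psmb8 at 2.29 and Brd2 at -0.15.

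Genes of the interferon gamma pathway above Ciita differed among themselves in their order of libraries. Irf1, an interferon regulatory factor that acts on a Ciita promoter, was at 5.08 and 3.497 CPM under saline, against 10.31, 9.45 and 5.07 CPM for 5A, 6A and 7A. Library 6A lay above both saline libraries, and library 7A just below saline replicate 1. Irf8, a myeloid interferon regulatory factor, was at 1.20 and 2.91 CPM under saline, against 5.76, 3.36 and 3.418 CPM. Ifngr2, a chain of the receptor, was at 17.68 and 19.99 CPM under saline, against 26.69, 22.76 and 23.07 CPM. Irf8 and Ifngr2 had the library order of H2-Aa, while Irf1 did not. In Irf8 and Ifngr2, however, libraries 6A and 7A were nearly level, with 54 and 60 counts of Irf8. H2-Aa was at 1.18 and 7.80 CPM in these libraries, so the shared order is no close likeness.

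Ifng itself had 0 counts in saline and 17, 4 and 0 counts for 5A, 6A and 7A. Whether interferon gamma had a part in the class II levels was not tested. Of the 11 genes of this list 10 were tested, 8 with DTx higher and 2 with DTx lower, and the median log2 fold change was 0.21. None passed over all genes with edgeR, and 2 had an unadjusted p under 0.05. Over all genes tested, 50.3% were higher, and 4.29% were higher with an unadjusted p under 0.05.

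The factors that bind class II promoters beside Ciita varied little. Rfx5, a subunit of the RFX complex, was at 16.53 and 15.51 CPM under saline, against 15.59, 18.66 and 18.29 CPM for 5A, 6A and 7A. Nfyb, a subunit of NF-Y, was at 31.21 and 35.28 CPM under saline, against 30.87, 31.1 and 30.99 CPM. Rfxap was at 7.34 and 4.21 CPM under saline, against 4.76, 5.16 and 4.84 CPM. All 7 were tested, with log2 fold changes from -0.23 to 0.13 and a median of -0.07, and 0 had an unadjusted p under 0.05.

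Enzymes of class II antigen processing and turnover gave no shared direction, with 5 of 8 higher (4 of 8 with RLE scaling), a median log2 fold change of 0.04 and 0 at an unadjusted p under 0.05. Ctss, the cathepsin that trims the invariant chain, was at 13.57 and 53.97 CPM under saline, against 105.9, 82.22 and 55.65 CPM for 5A, 6A and 7A (log2 fold change 1.27 ± 0.627, edgeR adjusted p = 0.797). Ctsl, another cathepsin, was at 78.07 and 116.8 CPM under saline, against 137, 120.5 and 96.44 CPM. March1, a ubiquitin ligase that removes class II from the surface, was at 33.2 and 36.4 CPM under saline, against 24.74, 22.82 and 37.82 CPM. March8, its relative, was at 152.7 and 149.8 CPM under saline, against 94.3, 91.98 and 142.6 CPM, with groups that did not overlap (log2 fold change -0.46 ± 0.220, edgeR adjusted p = 0.797).

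Co-stimulatory and adhesion genes were higher in the DTx-labelled libraries for 4 of 5 tested, against 50.3% of all genes, and the median log2 fold change was 1.44. None passed over all genes with edgeR, and the same 4 had an unadjusted p under 0.05, against 4.29% of all genes with DTx higher. Cd86, a ligand of CD28, was at 0.646 and 1.79 CPM under saline, against 4.76, 2.98 and 2.22 CPM for 5A, 6A and 7A. Cd274, the inhibitory ligand PD-L1, was at 0.923 and 1.44 CPM under saline, against 3.96, 7.15 and 1.99 CPM. Icosl, the ligand of ICOS, was at 2.40 and 5.69 CPM under saline, against 8.83, 12.5 and 6.89 CPM. Icam1, an adhesion molecule, was at 0.185 and 0.852 CPM under saline, against 3.81, 2.36 and 2.28 CPM (log2 fold change 2.42 ± 0.678, edgeR adjusted p = 0.778). In all 4 genes library 6A lay above both saline libraries, unlike in Cd74, H2-Ab1 and H2-Eb1.

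**Figure D5:**
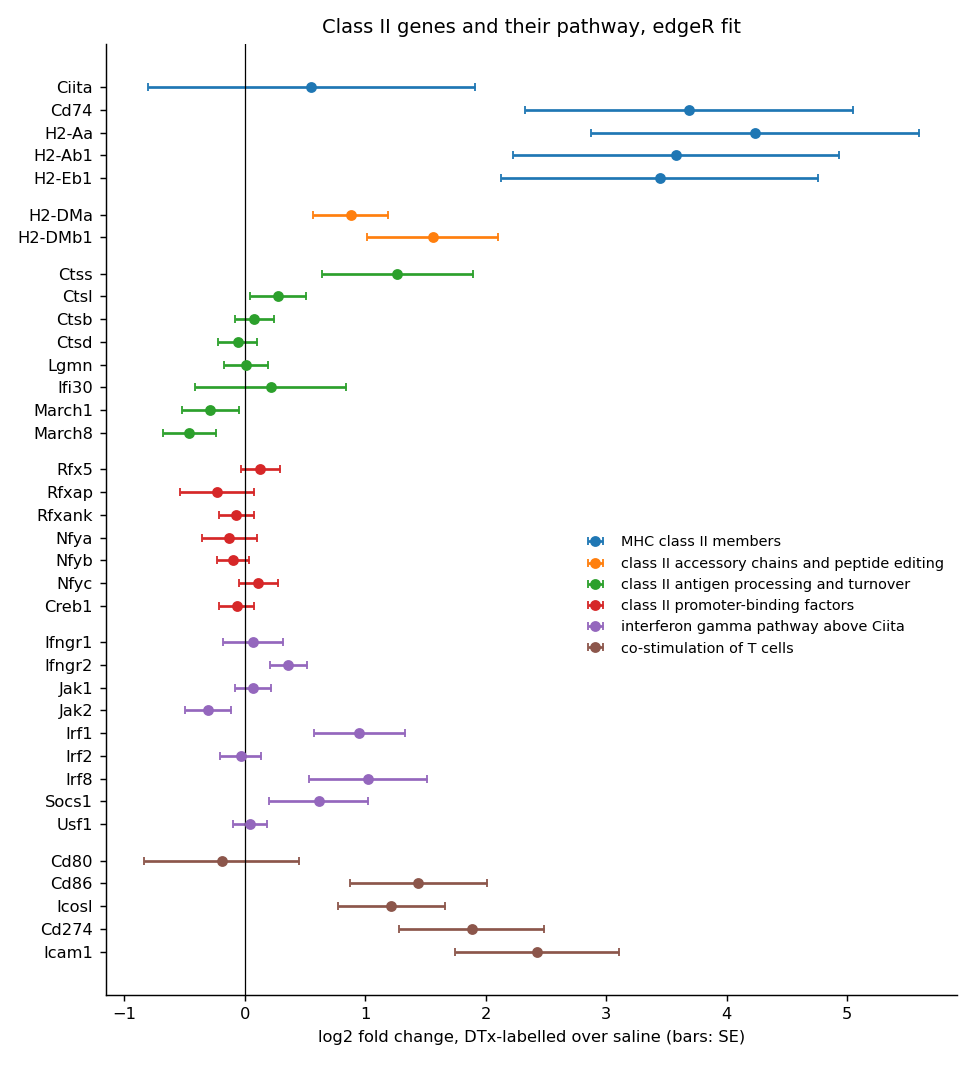
Log2 fold change, DTx-labelled over saline (x axis, bars SE), of the tested class II genes and of genes of their pathway, coloured by list. The 4 class II structural genes stood at 3.44 to 4.23 with SE of 1.31 to 1.36, Ciita at 0.55, and the promoter-binding factors between -0.23 and 0.13.

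Likeness to the class II genes over the 5 libraries was measured as the root mean square difference of the log2 level, centred per gene, from the mean of Cd74, H2-Aa, H2-Ab1 and H2-Eb1, among 13936 other genes with a mean of at least 1 CPM. The median difference over these genes was 2.02 on the log2 scale. The nearest was Cxcl2, a neutrophil chemokine, at a difference of 0.361, with 0.231 and 0.493 CPM under saline, against 9.20, 0.187 and 3.19 CPM for 5A, 6A and 7A. Then came Ccl7, a ligand of CCR2, at 0.514, with 0.877 and 1.08 CPM under saline, against 14.22, 0.995 and 5.30 CPM in the DTx libraries.

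The next 8 were Cybb (0.556), Ms4a6c (0.58), Ccr1 (0.58), AI607873 (0.62), Cd14 (0.66), Ccl2 (0.665), Lyz2 (0.689) and Slfn2 (0.704), all on the same log2 scale. Cybb, the catalytic subunit of the phagocyte oxidase, was at 0.739 and 1.61 CPM under saline, against 13.85, 1.80 and 7.69 CPM for 5A, 6A and 7A. Cd14, a lipopolysaccharide co-receptor of monocytes and macrophages, was at 2.31 and 3.59 CPM under saline, against 32.88, 4.42 and 13.73 CPM. Both genes were high in libraries 5A and 7A. Library 6A lay above saline replicate 2 in both, as in H2-Aa, while in Cd74, H2-Ab1 and H2-Eb1 it lay below. The nearest border macrophage marker was Lyve1 at 0.864, the nearest microglia marker C1qa at 1.34 and the nearest astrocyte marker Gfap at 1.58. Ciita itself stood at 1.61, farther than H2-DMb1 at 1.47 and Irf8 at 1.51. With 5 libraries this measure is a description and carries no test.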

How the data were processed

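Raw gene counts were deposited by the authors as 1 table, made with fastp 0.23.2, STAR 2.7.5c and featureCounts 2.0.1 on GRCm38, per the submitters' processing notes. For annotation and strand setting, nothing is given in the sources used here. Columns were matched to samples by name, with the column numbers of the saline libraries read as their replicate numbers, the DTx columns matched to the group only, and 1 column of no listed sample left out.

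Counts were tested with edgeR 4.0.16 in R 4.3.3 (TMM scaling, filterByExpr with a minimum count of 10, robust quasi-likelihood fit, 3 residual degrees of freedom), with Benjamini-Hochberg adjustment over the 15532 genes tested and a threshold of 0.05. SE is the log2 fold change over the root of F. The script was tested on simulated data. DESeq2 1.42.0, limma 3.58.1, other scalings and filters, and leaving out each library were tried as alternatives. Exon lengths came from the GRCm38 annotation and promoters from RefSeq.

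The text names all members, the genes of the lists by smallest p, and the 10 genes most alike. Members and lists were chosen with earlier results of these data known. Nothing says that the libraries come from separate animals, so p-values measure only the spread between them. Intervals cover counting error only. Some genes of the lists are not reported here by name, though the lists' counts and sums include them.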

Additional observations from a re-analysis of the deposited data

How the results depend on the processing

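No paired analysis was possible because the DTx columns carry numbers (5A, 6A, 7A) found in no label. Of 115 alternative values, 108 were labelled unchanged, by a rule that differed by kind of value. For fold changes it asked for the same direction and side of the threshold. For counts of genes it asked only for a count near the main one. For the Cd74 ratio and the microglia sum it asked only for the same direction. The number of genes called with edgeR was 5, and it was 9 with no low-count filter, 111 with DESeq2, 100 with the edgeR likelihood ratio test, 3 with the microglia covariate, and 5 to 13 when 1 library was left out (13 without 7A). The cause was not tested. With DESeq2, H2-Aa passed at a log2 fold change of 4.23 (adjusted p = 0.00304), and Ciita had no adjusted p. The likelihood ratio test gave the 4 class II genes adjusted p of 0.0640 to 0.263, and limma-voom gave log2 fold changes of 2.76 to 3.53. Ciita turned to -0.32 without saline replicate 2, in a range of -0.32 to 3.00 when 1 library was left out. It had no value without library 5A or at a minimum of 1 CPM in 2 samples, where it fell below the filter. The border macrophage denominator was chosen after seeing the data. Ciita rests on at most 14 counts in a library, which limits every statement on it, and each group left with 1 saline library is assumed to vary like the other.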
